A study of Mus musculus with 4 samples.

Results

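The 10 genes described here are regulators of skeletal muscle formation and of its resident stem cells: the myogenic basic helix-loop-helix (bHLH) factors Myod1, Myf5, Myf6 and Myog, the paired box factors Pax3 and Pax7, the MADS box factors Mef2a, Mef2c and Mef2d, and the muscle methyltransferase Smyd1. They were taken by symbol, with a gene measured by the row of the array table that carries that symbol alone and, for Mef2d, which has more than 1 such row, by the brighter row. All 10 were found among 19938 genes measured in this way. RNA came from visceral mesothelium of the omentum and from parietal mesothelium of the body wall, 2 Affymetrix Mouse Gene 1.0 ST arrays each, from untreated adult C57BL/6 mice that carried Wt1-cre and Rosa26ReYFP in both groups. In these mice Cre recombinase follows the promoter of the mesothelial factor Wt1 and switches on a yellow fluorescent reporter. The parietal layer was pulled away from the body wall muscle beneath it, and no cell sort is described for the RNA samples. The study reports, judging by the fluorescent marker, that nearly all of the input came from mesothelial cells. The labels give separate biological replicates but not the animals behind them, so p-values cover the spread between these arrays. In such bulk RNA, fewer cells of a type and less RNA per cell cannot be told apart.

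Skeletal muscle is specified by a small circuit of transcription factors. Pax3 in the embryo and Pax7 in adult satellite cells, the stem cells that lie against the muscle fibre, act upstream of the bHLH factors. Myf5 and Myod1 commit cells to the myoblast fate, Myog drives their terminal differentiation, and Myf6, also called MRF4, is the bHLH factor most abundant in mature fibres. These factors bind the E-box, CANNTG, as dimers with E proteins. MEF2 factors work beside them on muscle promoters but are also made in many other cells, and Smyd1 is needed for sarcomere assembly.

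Signals are log2 RMA values, so a difference of 1 is a doubling, and differences are visceral minus parietal. The table carries no detection call. As a gauge of an unexpressed signal, 1027 olfactory receptor genes had a 95th percentile of 6.70 to 6.78 on the 4 arrays. Probes differ in brightness for reasons other than RNA, so this is a guide and not a limit, and signals were not compared between genes. Array medians lay between 7.38 and 7.41, and the median difference over all genes was 0.

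Of the 10 regulators, 3 were lower in visceral mesothelium, Myf6, Smyd1 and Mef2c, and none was called higher. The test was limma across all genes, with p-values adjusted by Benjamini-Hochberg, and a call needed an adjusted p below 0.05 together with a 1.5-fold difference or more. By that rule 9.6% of all genes were called, 5.22% higher and 4.39% lower in visceral mesothelium. Without the fold minimum 5 of the 10 passed the adjusted p, Myod1 and Mef2a being the additional genes, against 14.2% of all genes. Those 2 did not pass in every fit that left out an array. The arrays of the tissues did not overlap for 8 regulators, 7 lower and 1 higher in visceral mesothelium, but this was so for 56.3% of all genes. The median difference of the 10 was -0.19, with a range of -2.78 to 0.45.

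**Figure D1:**
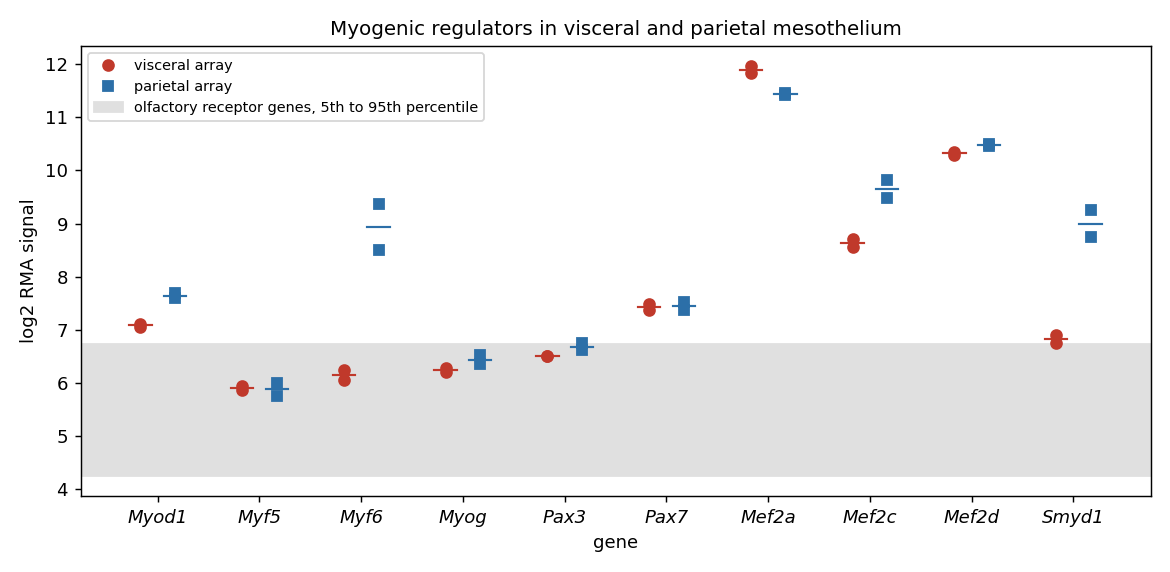
Log2 RMA signal (y axis) of the 10 genes (x axis) on each array, with visceral mesothelium as circles, parietal mesothelium as squares and a short line at the mean of each tissue. The grey band spans the 5th to 95th percentile of 1027 olfactory receptor genes (4.25 to 6.74); Myf6 lies inside it on the visceral arrays and at 8.50 and 9.36 on the parietal arrays.

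Among the bHLH factors only Myf6, the factor of the mature fibre, was called. Its signal was 6.24 and 6.05 on the visceral arrays, against 8.50 and 9.36 on the parietal arrays. Both visceral values fell within the range of the olfactory receptor genes and both parietal values above it. Myf6 was 6.89-fold lower in visceral mesothelium (log2 difference -2.78, standard error 0.27, 95% interval -3.46 to -2.11, adjusted p = 0.0022 from limma). Because the visceral signal could not be told from an unexpressed one, the fold compares signals rather than amounts of RNA. The parietal arrays also stood 0.86 apart from each other for this gene, the widest gap between replicates among the 10.

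Myod1, which commits cells to the muscle lineage, moved the same way by less. It measured 7.06 and 7.11 on the visceral arrays, against 7.59 and 7.69 on the parietal arrays. The tissues did not overlap, and all 4 values exceeded the 95th percentile of the olfactory receptor genes. The difference of -0.55 (95% interval -0.76 to -0.34) had an adjusted p of 0.0113 from limma and, at 1.46-fold, missed the fold threshold. Without parietal replicate 1 it was -0.60 and passed both (adjusted p = 0.0247 from limma), whereas without visceral replicate 1 or parietal replicate 2 the adjusted p was 0.0516 and 0.0558.

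Myog and Myf5, which act in differentiating and committed myoblasts, were not called. Myog measured 6.28 and 6.21 in visceral mesothelium, against 6.52 and 6.35 in parietal mesothelium, all within the olfactory receptor range, with a difference of -0.19 (95% interval -0.43 to 0.05, adjusted p = 0.29 from limma). Myf5 measured 5.95 and 5.87 on the visceral arrays, against 6.00 and 5.75 on the parietal arrays, which overlap and lie in the same range. Its difference was 0.03 (95% interval -0.24 to 0.31). Myf5 and Myf6 are neighbours on chromosome 10 in the RefSeq table. Their 95% intervals do not meet, and the difference between their effects was not tested.

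The promoter of Myog is shown because it is a well studied target of the bHLH and MEF2 factors, and those of Smyd1 and Mef2c because both genes were lower in visceral mesothelium. RefSeq start sites of build GRCm38.p6 were available for 7 of the 10 genes, Myf5, Myog, Pax7, Mef2a, Mef2c, Mef2d and Smyd1, in 9 windows. Each sequence holds the 250 bases before a start, read 5′ to 3′ on the strand of the gene, with matches to CANNTG in capitals. The Myog window is chr1:134289754-134290003 (plus strand), the Smyd1 window chr6:71262282-71262531 (minus strand) and the Mef2c window, the most upstream of its 3, chr13:83503784-83504033 (plus strand).
Myog: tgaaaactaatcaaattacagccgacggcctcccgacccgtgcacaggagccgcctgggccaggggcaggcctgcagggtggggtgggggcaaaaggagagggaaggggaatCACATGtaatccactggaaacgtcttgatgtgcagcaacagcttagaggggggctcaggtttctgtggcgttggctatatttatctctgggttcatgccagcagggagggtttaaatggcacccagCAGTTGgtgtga
Smyd1: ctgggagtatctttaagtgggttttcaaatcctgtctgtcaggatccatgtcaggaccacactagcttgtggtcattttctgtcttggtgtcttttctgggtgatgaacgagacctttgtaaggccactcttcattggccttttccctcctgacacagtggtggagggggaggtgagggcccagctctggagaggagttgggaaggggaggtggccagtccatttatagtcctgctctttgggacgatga
Mef2c: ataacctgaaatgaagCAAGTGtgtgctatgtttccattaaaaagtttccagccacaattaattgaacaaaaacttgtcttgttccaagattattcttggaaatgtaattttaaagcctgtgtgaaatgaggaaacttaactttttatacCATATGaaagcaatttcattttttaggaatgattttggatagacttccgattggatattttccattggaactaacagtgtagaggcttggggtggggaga
CANNTG reads the same on both strands. It was present at 138 and 12 bases before the start of Myog and at 234 and 100 bases before that of Mef2c, and was not found in the Smyd1 window. Of the 9 windows 3 held it, against 66.2% of all 32851 windows of this length. The form CAGCTG was in none of the 9 and in 13.0% of all windows. Such letters describe the windows and not binding.

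Smyd1, the muscle methyltransferase, was, like Myf6, lower in visceral mesothelium. Its signal was 6.75 and 6.91 on the visceral arrays, against 8.74 and 9.25 on the parietal arrays. The visceral values lay just above the 95th percentile of the olfactory receptor genes on their arrays, and every parietal value above every visceral value. Smyd1 was 4.49-fold lower in visceral mesothelium (log2 difference -2.17, standard error 0.18, 95% interval -2.60 to -1.73, adjusted p = 0.00118 from limma). With visceral signals so near that percentile, this fold too compares signals rather than amounts of RNA. Of 8 other measured genes of the SMYD family and of myosin chaperones, 1 was called, Unc45b, the muscle chaperone of myosin folding, at 7.24 and 7.06 in visceral mesothelium, against 8.55 and 8.80 in parietal mesothelium (difference -1.53, adjusted p = 0.00105 from limma). Smyd3 (0.33), Smyd2 (-0.17) and Naca (-0.16), the parent gene of a muscle partner of Smyd1, did not pass, and the median of the list was 0.02.

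Of the MEF2 genes, 1 was called. Mef2c measured 8.70 and 8.56 on the visceral arrays, against 9.48 and 9.82 on the parietal arrays, without overlap. It was 2.04-fold lower in visceral mesothelium (difference -1.03, standard error 0.13, 95% interval -1.36 to -0.69, adjusted p = 0.00618 from limma). Mef2a ran the other way, at 11.96 and 11.83 in visceral mesothelium, against 11.43 and 11.45 in parietal mesothelium. That difference of 0.45 (95% interval 0.23 to 0.67, adjusted p = 0.0244 from limma) was 1.37-fold and below the fold threshold. On leaving out each array in turn, the adjusted p of Mef2a was above 0.05 in 3 of 4 fits, at 0.0879 to 0.0911, and it was 0.0613 with all rows of the table in the fit. The intervals of Mef2a and Mef2c lie on opposite sides of 0.

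Mef2d was not called. It measured 10.30 and 10.34 on the visceral arrays, against 10.47 and 10.49 on the parietal arrays, a difference of -0.16 (95% interval -0.36 to 0.04, adjusted p = 0.275 from limma). A dimmer second row of Mef2d read 8.16 and 8.02 in visceral mesothelium, against 8.02 and 8.04 in parietal mesothelium. All 3 MEF2 genes stood above the olfactory receptor range on every array.

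Mef2c is also made in endothelium, B cells and macrophages, so markers of these cells are given beside it. Of 10 macrophage markers 10 were higher in visceral mesothelium (mean signal of the list 10.54 to 10.61 on the visceral arrays, against 8.58 to 8.68 on the parietal arrays), led by Mrc1 (2.69) and C1qc (2.94). Of 7 B cell markers 4 were higher in visceral mesothelium, Bank1, Cd79a, Cd79b and Ms4a1 (differences 1.55 to 1.99), with list means of 7.33 to 7.67 against 6.35 to 6.39 in parietal mesothelium. Of 10 endothelial markers, with list means of 7.82 to 7.93 in visceral and 7.98 to 8.0 in parietal mesothelium, Esam (-0.69) and Cdh5 (-0.60) were lower in visceral mesothelium, a count of 2 that was 1 without visceral replicate 1 or parietal replicate 2. The other 8 endothelial markers were not called, and differences on that list ran from -0.69 to 0.26 with a median of 0.01. None of the 10 macrophage markers, 1 of the 10 endothelial markers and 1 of the 7 B cell markers was within the olfactory receptor range on both visceral arrays. On both parietal arrays this held for 0, 1 and 4. The part of these cells in the Mef2c difference was not tested.

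**Figure D2:**
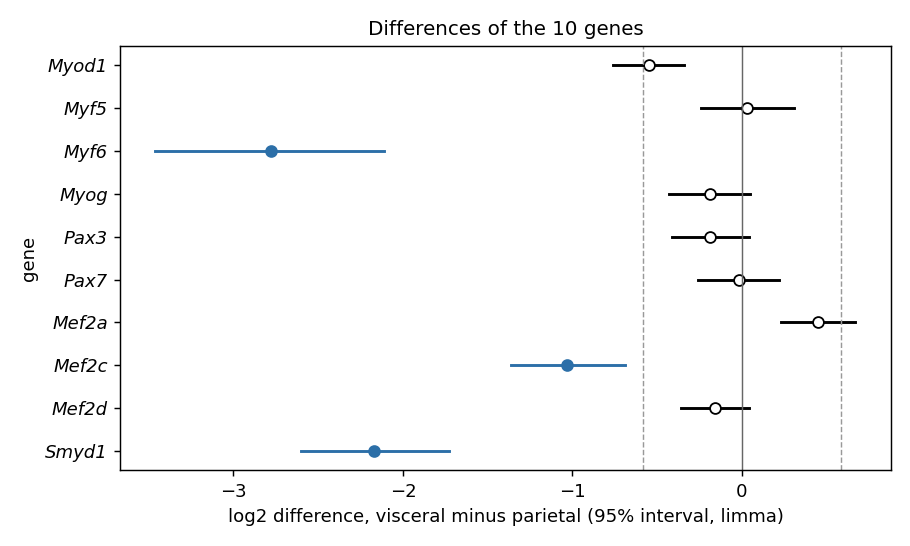
Log2 difference, visceral minus parietal (x axis), of each gene (y axis), with its 95% interval from limma as a bar. Filled blue points were called, open points were not, and dashed lines mark a fold of 1.5; Myf6 (-2.78), Smyd1 (-2.17) and Mef2c (-1.03) lie beyond the left dashed line.

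MEF2 activity is held back by class II histone deacetylases and raised by calcium and kinase signals. Of 22 such cofactors and signals, 2 were higher in visceral mesothelium, the deacetylase Hdac9 (0.61, adjusted p = 0.00648 from limma) and the calcineurin-regulated factor Nfatc2 (0.64, adjusted p = 0.0241), and none was called lower. That count is near the share called over all genes, 9.6%. Akap6 (-0.47, adjusted p = 0.0181 from limma), a scaffold of the muscle nuclear envelope, passed the adjusted p but not the fold, and Hdac7 (-0.32) passed neither. The count of 2 higher was 1 without visceral replicate 1 or parietal replicate 2, 0 without visceral replicate 2 and 3 without parietal replicate 1, and the lower count was 1 without either parietal array. With the replicate number as a block 3 were higher and 1 was lower. The widest difference on the list belonged to Ppargc1a, a coactivator of MEF2 factors in slow fibres, which was picked out after its values were seen. It measured 7.01 and 7.39 in visceral mesothelium, against 7.98 and 9.22 in parietal mesothelium, a difference of -1.40 that did not pass (adjusted p = 0.077 from limma).

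Neither PAX factor was called. Pax7, which marks quiescent satellite cells, measured 7.48 and 7.38 on the visceral arrays, against 7.37 and 7.53 on the parietal arrays. The values interleave, and the difference was -0.02 (95% interval -0.26 to 0.22, adjusted p = 0.939 from limma). Pax3 measured 6.50 on each visceral array, against 6.75 and 6.62 on the parietal arrays, a difference of -0.19 (95% interval -0.41 to 0.04, adjusted p = 0.254 from limma). These arrays do not overlap, yet 3 of the 4 values lie within the olfactory receptor range. All 4 Pax7 values lay above the 95th percentile of the olfactory receptor genes, which does not show that they come from Pax7 RNA. The interval of Pax7 allows changes in signal of up to 0.26 on the log2 scale. It bounds a change in RNA only if the probes read that RNA.

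Pax3 is also made in the neural crest and its Schwann cell derivatives. Of 7 measured Schwann and neural crest markers 0 were called by limma, with means of the list at 7.46 to 7.50 on the visceral arrays and 7.61 to 7.70 on the parietal arrays. The receptor Erbb3 (-0.44, adjusted p = 0.0284 from limma) passed the adjusted p but not the fold, while Mbp (-0.39), the crest factor Sox10 (-0.20) and Dct (-0.18) passed neither. On both visceral and on both parietal arrays 2 of the 7 were within the olfactory receptor range. Whether such cells add to the Pax3 signal was not tested.

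Surface and niche genes of satellite cells were called in both directions. Of 20 genes, 3 were higher in visceral mesothelium, the proteoglycan Sdc3 (1.49), the adhesion molecule Vcam1 (0.92) and Cd34 (0.77), and 3 were lower, the adhesion molecule Ncam1 (-1.34), the laminin receptor Itga7 (-0.89) and Met (-0.86), the receptor for hepatocyte growth factor. Itga7 and Met were named after their values were seen. These 6 genes are also made by other cell types. Cdh15, the cadherin of satellite cells and myoblasts, measured 7.32 and 7.36 in visceral mesothelium, against 7.47 and 7.68 in parietal mesothelium, and Calcr, the calcitonin receptor of quiescent satellite cells, 5.98 and 6.02 against 6.23 and 6.36 in parietal mesothelium. Neither passed (differences -0.24 and -0.30, adjusted p = 0.203 and 0.0904 from limma), and both were looked up after the fit as defining markers. Calcr lay within the olfactory receptor range on every array, so its signal could not be told from an unexpressed one. The median of the list was -0.03. With all rows of the table in the fit 3 were higher and 2 lower in visceral mesothelium. At an adjusted p below 0.01 these counts were 3 and 1.

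Regulators upstream of the bHLH factors also split. Of 19 measured genes, 3 were higher and 6 lower in visceral mesothelium, with a median of -0.04. The coactivators Eya2 (1.65) and Eya4 (1.71) were higher, at 9.67 and 9.75 on the visceral arrays for Eya2, against 7.99 and 8.12 on the parietal arrays. Eya1 of the same family ran the other way (-1.02, adjusted p = 0.0379 from limma), at 6.51 and 6.19 in visceral mesothelium, against 7.05 and 7.70 in parietal mesothelium, and was named after its values were seen. The homeobox factors Pitx1 (-1.0) and Meox2 (-0.85) were lower. Without visceral replicate 1 the lower count was 2 of 19 and the higher count 2, and with all rows of the table in the fit the lower count was 2 and the higher count 3.

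Among dimer partners and inhibitors of the bHLH factors, inhibitors were called in both directions. Of 15 partners and inhibitors 2 were higher and 3 lower in visceral mesothelium, with a median of -0.06. Of the E protein genes, looked up after the fit, Tcf4 (0.46, adjusted p = 0.0279 from limma) passed the adjusted p but not the fold, and Tcf3 (-0.06) and Tcf12 (0.18) passed neither. Twist1, which blocks MyoD activity, was lower in visceral mesothelium (-1.13, adjusted p = 0.00162 from limma), as were the inhibitor Id1 (-0.76) and the repressor Bhlhe41 (-0.99), whereas Id4 (1.12) and Id2 (0.97), inhibitors of the same family, were higher. Id2 was named after its values were seen. Without either visceral array in turn, 1 of the 15 was called higher and 2 lower, and with all rows of the table in the fit 0 were called higher and 2 lower.

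**Figure D3:**
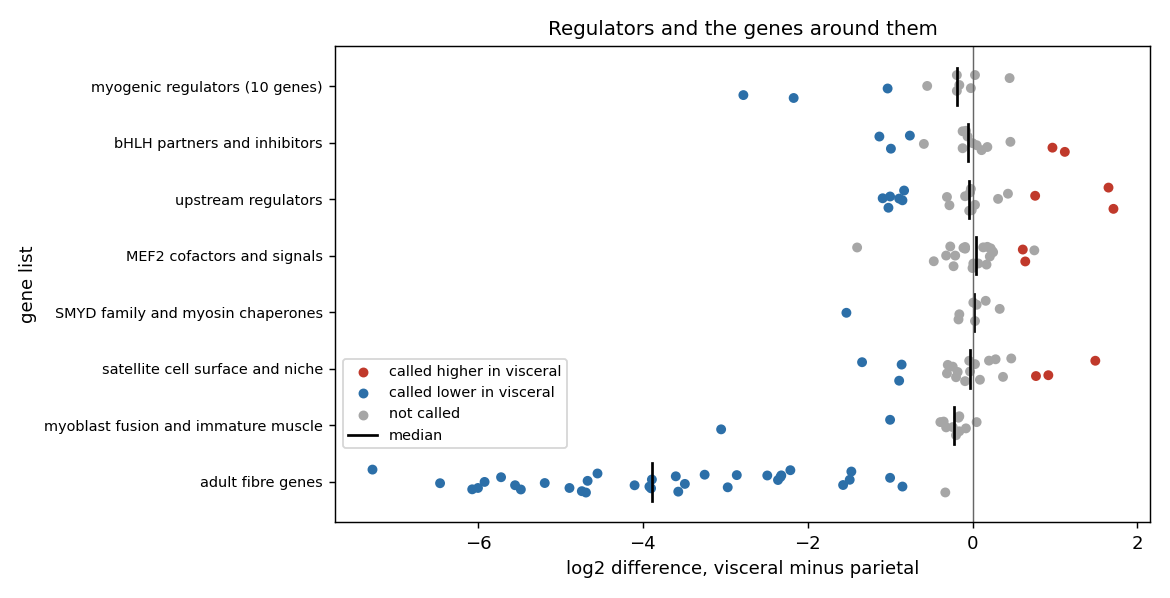
Log2 difference, visceral minus parietal (x axis), of single genes in 8 lists (y axis), red where called higher in visceral mesothelium, blue where called lower and grey where not called, with a black line at the median of each list. The adult fibre genes lie to the left, with a median of -3.89, while the medians of the other 7 lists lie between -0.22 and 0.04.

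Of 12 measured genes of immature and fusing muscle, 2 were lower in visceral mesothelium and none was called higher, with a median of -0.22. Musk, the receptor kinase of the neuromuscular junction, measured 6.67 and 6.72 in visceral mesothelium, against 9.48 and 10.01 in parietal mesothelium (difference -3.05, adjusted p = 0.000379 from limma), and the acetylcholine receptor subunit Chrna1 differed by -1.0 (adjusted p = 0.00255). Both are kept in mature fibres. The perinatal myosin Myh8 (-0.39), the embryonic myosin Myh3 (-0.20), the fetal receptor subunit Chrng (-0.08) and the fusion genes Mymk (-0.16) and Mymx (-0.32) did not pass. All of these but Myh8 were looked up after the fit. On both visceral arrays 4 of the 12 were within the olfactory receptor range, Musk and Chrna1 among them, and on both parietal arrays 2. Chrna1 was within it on parietal replicate 1 also, and Myh3 on every array.

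Adult fibre genes, which include many targets of the bHLH and MEF2 factors, were lower in visceral mesothelium in 34 of 35 cases, with a median difference of -3.89. Myl1, a fast myosin light chain, measured 6.17 and 6.15 on the visceral arrays, against 13.42 and 13.45 on the parietal arrays, and Acta1, skeletal actin, 7.83 and 7.81 against 13.22 and 13.38 in parietal mesothelium. The remaining gene was Chrne, the adult receptor subunit (-0.33, adjusted p = 0.053 from limma). On both visceral arrays 15 of the 35 were within the olfactory receptor range, and 0 on the parietal arrays. The mean signal of the list was 7.13 on each visceral array, against 10.66 and 11.09 on the parietal arrays. The fibre genes ran the same way as the called regulators, and the part of muscle fibre RNA in the differences of Myf6, Smyd1 and Mef2c was not tested.

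The replicates of parietal mesothelium differed in the same direction for the called regulators and for most fibre genes. Parietal replicate 2 exceeded parietal replicate 1 by 0.86 for Myf6, 0.51 for Smyd1 and 0.34 for Mef2c, and for 34 of the 35 fibre genes, by a median of 0.46. The same gap was 0.16 for Pax7, 0.10 for Myod1, 0.02 for Mef2d, 0.01 for Mef2a, -0.14 for Pax3, -0.17 for Myog and -0.25 for Myf5. Parietal replicate 2 was also the higher for 13 of 19 upstream regulators and 7 of 7 Schwann and neural crest markers, but for 5 of 12 mesothelial markers. The count was 5 of 12 for immature and fusing muscle, 11 of 20 for satellite cell genes and 4 of 8 for SMYD and chaperone genes. It was 12 of 22 for MEF2 cofactors and 9 of 15 for bHLH partners and inhibitors. Macrophage, B cell, endothelial and smooth muscle markers gave 6 of 10, 4 of 7, 5 of 10 and 4 of 7. The share over all genes was not computed. With 1 such gap per gene this is a description and has no test.

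The 5 genes whose profile over the 4 arrays lay nearest to that of Myf6, each centred on its own mean, were Mypn, Mlip, Myom1, Cox6a2 and Asb5, at Euclidean distances of 0.10 to 0.31 on the log2 scale. Mypn and Myom1 encode sarcomere proteins, Cox6a2 the muscle form of a cytochrome oxidase subunit, and Mlip and Asb5 are expressed in muscle. Mypn, the nearest, measured 5.67 and 5.56 in visceral mesothelium, against 7.91 and 8.72 in parietal mesothelium. Likeness over 4 arrays is a description of these arrays.

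**Figure D4:**
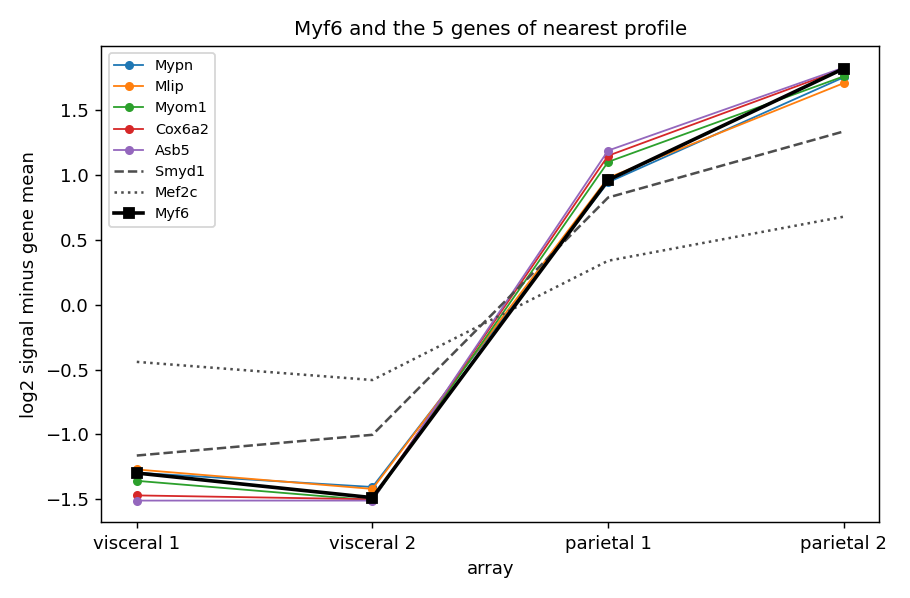
Log2 signal minus the gene mean (y axis) on each of the 4 arrays (x axis) for Myf6 (black squares), its 5 nearest genes (coloured), Smyd1 (dashed) and Mef2c (dotted). All run lower on the visceral arrays, and all stand higher on parietal replicate 2 than on parietal replicate 1, by 0.86 for Myf6, 0.51 for Smyd1 and 0.34 for Mef2c. For the 5 nearest genes this likeness follows from how they were picked.

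The samples carried mesothelial markers on all arrays. The mean signal of 12 markers was 11.42 to 11.54 on the visceral arrays and 12.32 to 12.43 on the parietal arrays, and none lay within the olfactory receptor range. Of the 12, 7 were lower in visceral mesothelium, such as Msln (-2.14) and Krt7 (-1.78), and 1, Wt1 (0.84), named after its value was seen, was higher. Smooth muscle markers were higher in visceral mesothelium for 5 of 7 genes, led by Myh11 (2.67), with list means of 9.49 to 9.99 on the visceral arrays and 8.40 to 8.48 on the parietal arrays, and for 3 of 7 with all rows of the table in the fit. Skeletal and smooth muscle genes ran in opposite directions.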

How the data were processed

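RNA of visceral and parietal mesothelium was measured on 4 one-colour Affymetrix arrays, 2 per tissue. RMA signals on the log2 scale were deposited, computed in Partek 6.6 according to the submitters' processing notes, and were used unchanged. Which array library was used is not given in the sources used here. Of 35556 rows, 21789 carried 1 gene symbol in the platform annotation, which gave 19938 genes, and 21698 of these rows were found by gene identifier in the RefSeq table of GRCm38.p6. A gene with several rows was taken at the highest mean of the 4 arrays. Differences were fitted over all 19938 genes without a block (limma 3.58.1, R 4.3.3), and the code was tested on simulated data. Promoter windows came from RefSeq.

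Genes named are the 10 regulators, up to 4 per list with the lowest adjusted p, and the 5 nearest to the regulator with the largest difference; exceptions are stated in the text. The regulators and lists were chosen with earlier results of these data known. In 18 alternatives the test, thresholds, variance prior, normalization, filter, choice of rows, block and arrays were changed. Depth has no counterpart on arrays, whose number limits the precision. List counts are over the genes measured, and some genes of the lists are not reported here.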

Additional observations from a re-analysis of the deposited data

How the results depend on the processing

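The counts of 3 regulators lower and 0 higher in visceral mesothelium stayed within 1.5 times under most alternatives. The study's methods name an analysis of variance, run here as an equal-variance t-test, which uses only each gene's own 4 arrays. Adjusted by Benjamini-Hochberg, this t-test gave a lower count of 0, and a count of 0 over all 19938 genes. The study reports many differing probes from its own test with that adjustment, and why the counts differ was not tested. Without that adjustment the t-test gave 3, and Myf6, Mef2c and Smyd1 had adjusted p of 0.203, 0.218 and 0.174 with it. Without a minimum fold the higher count was 1, Mef2a, and the lower count 4, the fourth being Myod1. The filter on dim genes kept 4 of the 10, of which 2 were lower. Leaving out each array gave 3 to 4 lower and 0 higher. Over these fits Myf6 ran from -3.21 to -2.36, Smyd1 from -2.42 to -1.91 and Mef2c from -1.19 to -0.86, each called every time. Such a fit has 1 array in one tissue, which is assumed to vary like the other tissue's arrays, so these calls do not measure stability. Uncalled Myf5 changed sign, with -0.01 without visceral replicate 1 and -0.09 without parietal replicate 2, among values of -0.09 to 0.16. So did uncalled Pax7, with 0.03 without visceral replicate 2 and 0.06 without parietal replicate 2, among -0.10 to 0.06.

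Same-numbered arrays of the tissues deviated together over genes (r = 0.36), but the labels do not tie a number to an animal. With the replicate block the regulators called remained 3 lower and 0 higher, and all called genes numbered 2008, against 1915. With every row of the table in the fit, named or not, 2 upstream regulators were lower in visceral mesothelium, against 6, 0 bHLH partners and inhibitors were higher, against 2, 1 MEF2 cofactor was higher, against 2, and 3 smooth muscle markers, against 5. The cause was not tested. The block gave 3 MEF2 cofactors higher and 1 lower, against 2 and 0. Signals within the range of the olfactory receptor genes limit what can be said of Myf5, Myog and Pax3. Pax7 lay above that range and alike in both tissues, and whether its signal came from Pax7 RNA was not tested.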

Other observations

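MicroRNAs of skeletal and cardiac muscle were looked up after the other results were seen. The array has rows under the symbols of 7 such genes, Mir1a-1, Mir1a-2, Mir133a-1, Mir133a-2, Mir206, Mir208a and Mir499. Their signals ran from 3.97 to 5.26 over the 4 arrays, below the 95th percentile of the olfactory receptor genes, and their differences, visceral minus parietal, from -0.20 to 0.11. In the limma fit 0 of the 7 were called and 0 had an unadjusted p under 0.05. With every signal below that percentile, these rows cannot show whether the microRNAs were present or differed.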
